A study of Mus musculus with 8 samples.

Results

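The 47 genes described here act in mitosis and in the mitotic spindle, and were followed through single cells of the mouse dentate gyrus after brain injury. They were taken as a given list, and each member matched 1 row of the 31053 genes in the count tables. All 47 had at least 20 UMIs (unique molecular identifiers, tags that mark single captured RNA molecules) in the cycling progenitors named below. The cells came from 8-week-old male mice of the strain Nestin-GFP, in which control elements of the nestin gene, active in neural stem cells and in several other cell types, drive GFP. The Control group had a sham craniotomy and the TBI group a unilateral controlled cortical impact, and the dentate gyrus of the operated side was taken 15 days after surgery from both. GFP-positive cells of the animals of a condition were sorted as 1 pool and gave 1 library each. The 2 libraries are therefore 1 sample per condition, although the labels name 4 animals in each group and the study's methods give other numbers, and the cells cannot be traced to an animal. No difference between Control and TBI could be tested, no p-value is given, and every interval is a 95% interval that covers counting error only.

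The Control library held 3048 cells after filtering, with a median of 6933 UMIs, and the TBI library 5033 cells with a median of 5676 UMIs. The libraries shared 3 cell barcodes. Clusters were formed without the 47 genes and without Malat1, and were named from other marker genes, so that a name ending in "-like" says only which markers a cluster carried. The S-phase-like cycling progenitors (80 Control and 69 TBI cells) carried replication histones. The G2/M-like cycling progenitors (93 and 108 cells) carried genes such as Cdkn3 and Dlgap5. Their G2/M-like to S-phase-like ratios were 3.85 and 2.41 in Control and 2.57 and 1.92 in TBI. Not all naming markers of this class leaned to it. Ccnf gave 0.719 in Control and 0.497 in TBI, and Sgo2a gave 0.788 and 1.05. Depdc1a, Tacc3, Psrc1, Cep55 and Gas2l3 lay above 1 in both libraries. Their ratios ran from 1.05 to 1.63 in Control and from 1.12 to 1.36 in TBI. The 12 G2/M markers summed to 4020 and 3489 CPM (defined below) in the G2/M-like cells of Control and TBI. In the S-phase-like cells they summed to 2691 and 2648, so these markers separate the classes only in part. All 12 radial-glia markers had UMIs in the radial-glia-like cells and all 8 early neuroblast markers in the early-neuroblast-like cells, in both libraries. All of them also had UMIs in both cycling classes, so having a UMI does not separate these populations. The early neuroblast markers summed to 4770 CPM in the Control and 4446 in the TBI radial-glia-like cells. In the early-neuroblast-like cells they summed to 6058 and 6014. The 12 radial-glia markers include Mcm2, Mcm3, Mcm5, Mcm6, Cdca7, Ung and Uhrf1, which are replication-linked cell cycle genes. Wherever this list is summed, it therefore does not read radial glia alone. Ung, Cdca7, Mcm3 and Neurog2 were among the leading genes of the radial-glia-like cluster. Whether the radial-glia-like cells are stem cells or later progenitors was not tested. Both cycling classes pooled had a median of 16938 UMIs in Control and 11678 in TBI, while the TBI G2/M-like cells alone, at 10233, were shallower than the TBI radial-glia-like cells at 11239. Other cell cycle genes of the same cells split the cycling classes and helped to name the radial-glia-like cells. Levels in these populations are therefore a description and not a test. The sort for GFP set which cells were present and in what proportion.

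In a dividing cell, cyclin-dependent kinase 1 with cyclin A or B drives entry into mitosis, Aurora and Polo kinases build and check the spindle, and kinetochores couple chromosomes to microtubules. The anaphase-promoting complex then marks cyclin B and securin for destruction, the chromosomes part, and kinesins and their partners complete cytokinesis. Many of these genes are transcribed late in the cell cycle and are little used in cells that have left it. In the adult dentate gyrus, radial-glia-like stem cells give rise to dividing intermediate progenitors, whose daughters become neuroblasts and granule neurons.

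The summed level of the 47 genes separated the 2 cycling classes from every other population. Whether the radial-glia-like cells, whose leading genes include Ung and Mcm3, were also in the cell cycle was not tested. Levels are UMIs per 1000000 UMIs of all genes but Malat1 (CPM). They were not divided by gene length because each captured molecule is tagged once at its 3′ end. In the S-phase-like cells the sum was 16215 CPM in Control (interval 16014 to 16418) and 16229 in TBI (15973 to 16487). In the G2/M-like cells it was 18212 in Control (17992 to 18434) and 17276 in TBI (17036 to 17519), so that 1.82% and 1.73% of their UMIs came from these genes. The radial-glia-like cells followed with 1379 CPM in Control and 1530 in TBI, and the early-neuroblast-like cells with 417 and 476. Late-neuroblast-like cells held 242 and 235 CPM, astrocyte-like cells 205 and 204, and oligodendrocyte-like cells, which do not divide and serve here as the background, 193 and 183. The order from G2/M-like through S-phase-like, radial-glia-like and early-neuroblast-like to late-neuroblast-like cells was the same in both libraries, with no overlap of neighbouring intervals within a library. Over all cells the sum was 2509 CPM in Control and 1540 in TBI, where the cycling progenitors made up 173 of 3048 and 177 of 5033 cells. In the sum over all cells alone, fewer cells that express a gene and less RNA per cell cannot be told apart. The TBI to Control ratio was 0.614 over all cells (0.606 to 0.621). It was 0.978 within the cycling progenitors (0.965 to 0.991) and 1.07 in all cells outside them (1.04 to 1.10). The part of the cell numbers in the ratio over all cells was not tested.

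**Figure D1:**
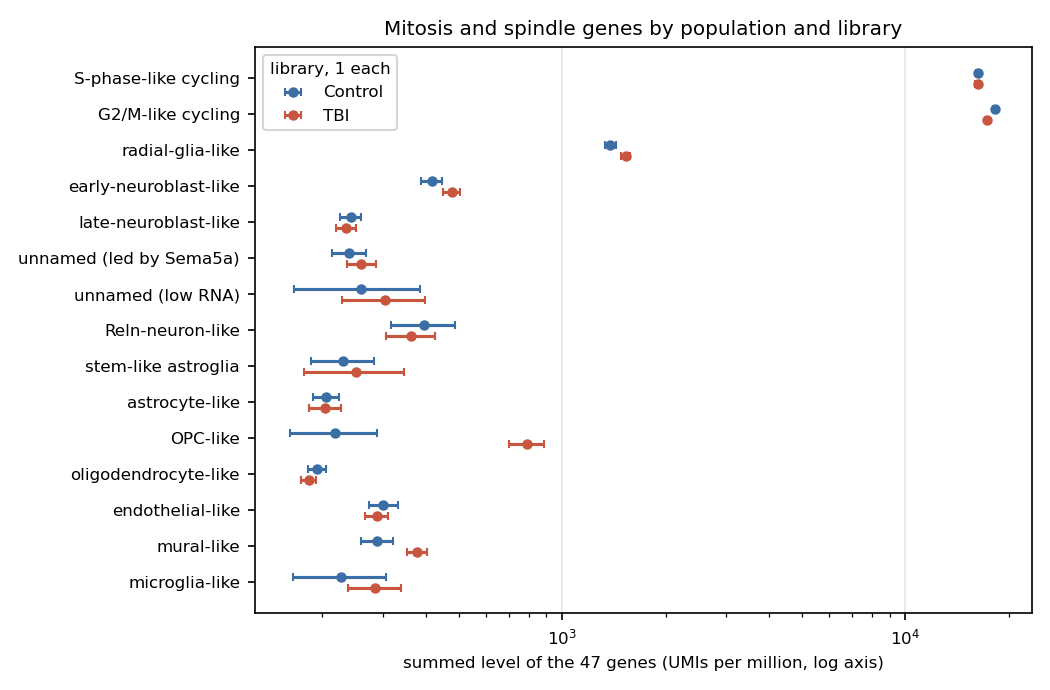
Summed level of the 47 genes in CPM (log axis) in each population, with 1 point per library (blue, Control; red, TBI) and bars for the exact 95% Poisson interval of the UMI sum. The 2 cycling classes lie between 16215 and 18212, the radial-glia-like cells at 1379 and 1530, and most other populations between 183 and 476, with the TBI OPC-like cells (oligodendrocyte precursors) at 789.

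Within the cycling progenitors, taken as both classes together, the genes of chromosome structure gave the largest sum over a role group, 3734 CPM in Control and 3508 in TBI. Centromere and kinetochore genes followed with 3361 and 3440. Cenpf, a large coiled-coil protein of the outer kinetochore (chromosome 1, positions 189640606 to 189688086), was the highest of all members at 1391 CPM in Control (1349 to 1434) and 1474 in TBI (1422 to 1527). Top2a, the topoisomerase that untangles sister chromatids (chromosome 11, 98992943 to 99024189), followed at 1202 and 1065. Mki67, which encodes the proliferation antigen Ki-67 that coats mitotic chromosomes (chromosome 7, 135689784 to 135716361), stood at 889 and 843. The lowest of the kinetochore group, the Ndc80 subunit that binds microtubules, was at 111 and 91.1, and the lowest of the chromosome group, the cohesin acetyltransferase gene Esco2, at 255 and 216.

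The 6 genes around CDK1 summed to 2049 CPM in Control and 1892 in TBI. Their highest member was the CDK-binding subunit Cks2, at 772 (741 to 805) in Control and 744 (708 to 782) in TBI. Cdk1 itself, the kinase (chromosome 10, 69335146 to 69352938), stood at 376 and 309, and the lowest member was its activating phosphatase Cdc25c at 65.5 and 64.2. Among genes of the anaphase-promoting complex and mitotic exit, the ubiquitin-conjugating enzyme Ube2c was highest at 762 and 748. Pttg1, the gene of securin, was the lowest of all 47 members in the cycling progenitors, at 37.8 (31.1 to 45.5) and 28.8 (21.9 to 37.0).

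The spindle assembly group summed to 2461 and 2580 CPM. The Aurora A activator Tpx2 led it with 569 and 678, and Ckap2l, at 238 and 243, was lowest in the mean of both libraries, close to Aspm at 238 and 253 and Nusap1 at 255 and 232. Of the chromosomal passenger complex, Cdca8 (borealin) led with 511 and 494 and the kinase Aurkb was lowest with 177 and 140. Kif11, the motor that pushes spindle poles apart, led the kinesins with 271 and 302, and Kif20a, a motor of the central spindle, was lowest with 85.7 and 95.9. The checkpoint kinase gene Bub1b stood at 158 and 172 and Aurka at 127 and 105, the highest and the lowest of their group in the mean of both libraries, although Bub1 was lower than Aurka in Control at 119. Of the cytokinesis regulators, Racgap1, a subunit of centralspindlin, stood at 458 and 447 and the exchange factor Ect2 at 148 and 167. Pimreg, a mitotic regulator placed in no other group, stood at 272 and 232. Within a library these levels span more than an order of magnitude, and the lowest intervals lie far from the highest.

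**Figure D2:**
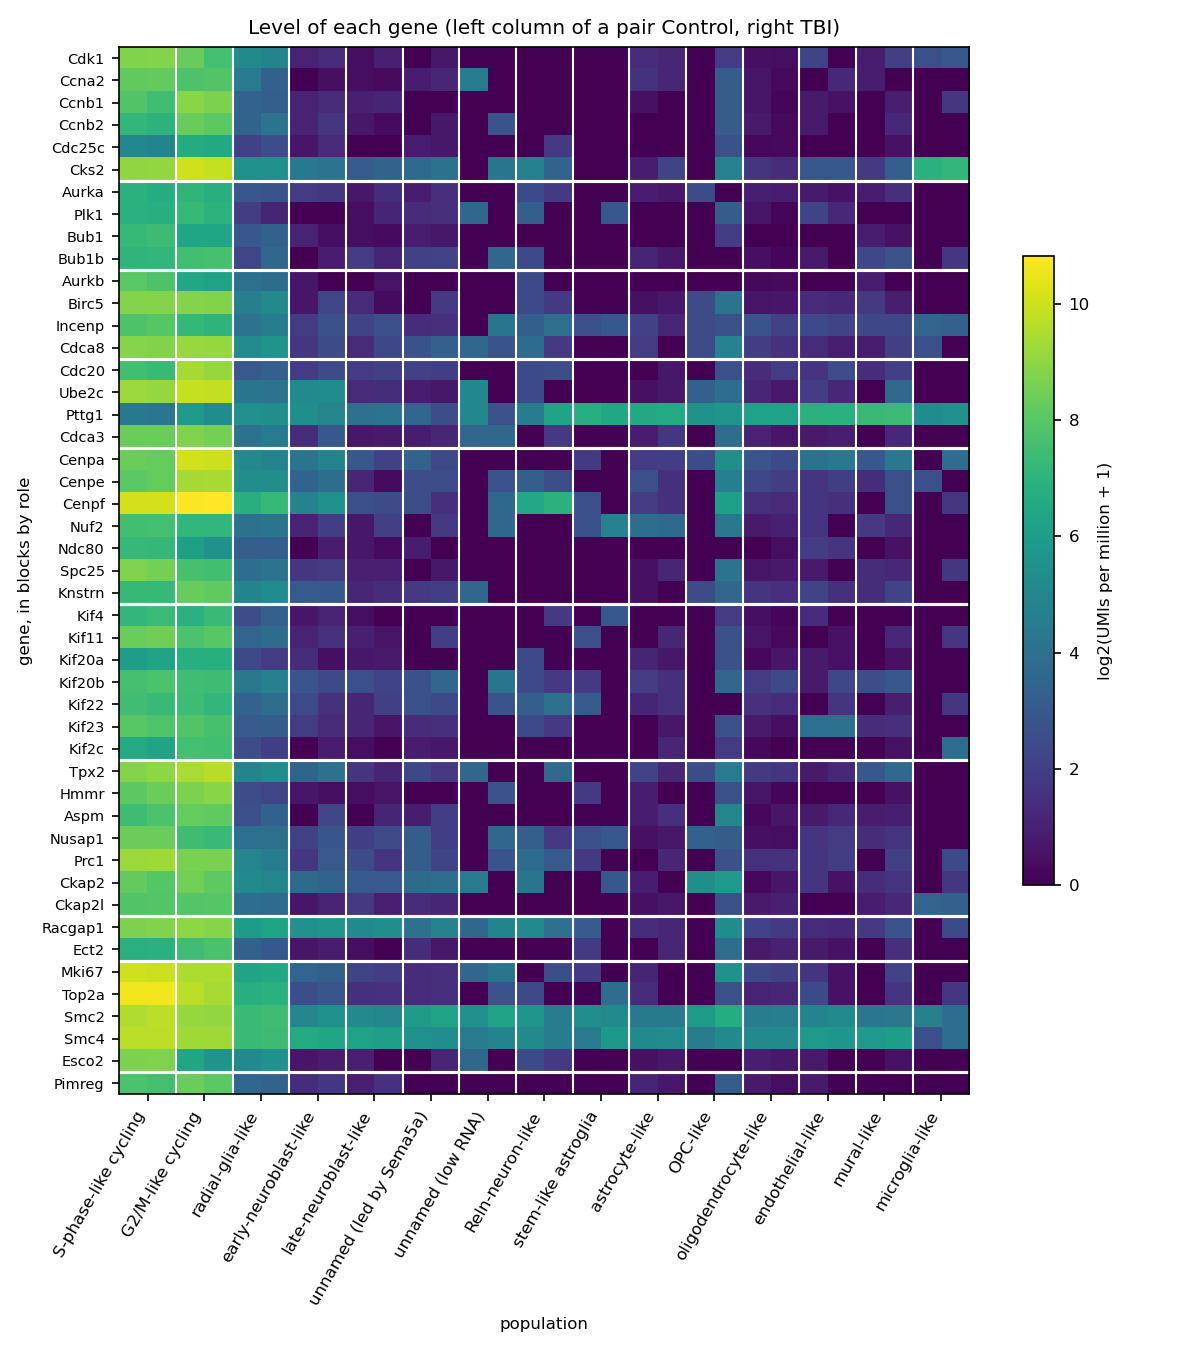
Level of each of the 47 genes as log2(CPM + 1), in blocks by role (rows) and in each population (columns, Control left and TBI right in each pair). The cycling columns are bright in all rows but Pttg1 and, in the S-phase-like cells, Cdc25c, while Pttg1, Smc4 and Smc2 stay visible in nearly all populations, Racgap1 in the neuronal ones, and Cenpf in the Reln-neuron-like cells.

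Counted per cell, the list divided the populations in the same way. Each cell was thinned to 2000 UMIs, because shallower cells show fewer genes, and cells below that depth were left out (2 Control cells of the G2/M-like class and none of the other cycling cells). A thinned S-phase-like cell held a median of 17.5 of the 47 genes in Control (quartiles 13 and 22) and 16 in TBI (12 and 23). In the G2/M-like cells the medians were 19 in Control (11 and 23) and 16 in TBI (10 and 25), with a wider spread at the low end, down to 1 gene. A radial-glia-like cell held a median of 1 in Control and 2 in TBI, and an early-neuroblast-like cell a median of 1 in both.

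At least 5 members were found in 80 of 80 Control and 68 of 69 TBI S-phase-like cells. In the G2/M-like cells this held for 93.4% in Control (86.2 to 97.5) and 91.7% in TBI (84.8 to 96.1). Radial-glia-like cells reached it in 12.7% of 150 Control cells (7.80 to 19.1) and 13.0% of 230 TBI cells (8.98 to 18.1), values that their counting error does not separate. Unthinned, the shares of the radial-glia-like cells were 72.8% in Control and 62.6% in TBI, at a median depth of 14230 and 11239 UMIs. Among early-neuroblast-like cells 1 of 148 Control and 6 of 276 TBI cells passed, and in the background of oligodendrocyte-like cells 1 of 551 and 0 of 1026, where a count of 0 allows 3 cells and so a share of up to 0.292% in TBI. The single oligodendrocyte-like cell was called a doublet. Of all 393 cells that passed, 332 were in the cycling classes, 49 were radial-glia-like, 7 early-neuroblast-like and 5 elsewhere.

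**Figure D3:**
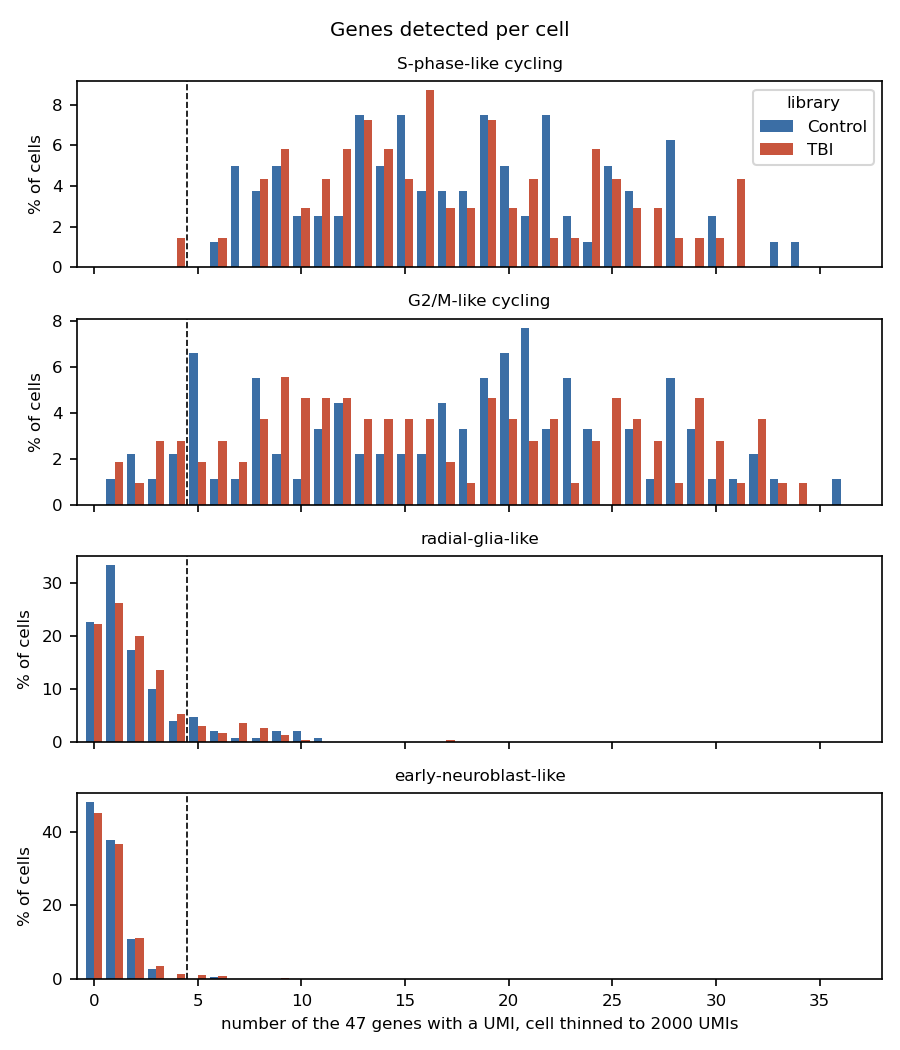
Share of cells (vertical axis, percent, starting at 0) by the number of the 47 genes with a UMI after thinning to 2000 UMIs (horizontal axis), for 4 populations and both libraries (blue, Control; red, TBI), with a dashed line at the limit of 5 genes. Nearly all cycling cells lie right of the line with medians from 16 to 19, and 12.7% and 13.0% of the radial-glia-like cells lie there as a tail.

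The tail of the radial-glia-like cells carried much of their signal. The 19 Control cells with at least 5 members held 40.1% of the member UMIs of this population, and the 30 TBI cells 38.8%. The rest stood at 961 and 1088 CPM, above every population other than the cycling classes. Relative to the cycling progenitors, the members kept unequal shares of their level in the radial-glia-like cells of both libraries together. Smc2 and Smc4, the core subunits of condensin, kept 25.3% and 22.7%, Esco2 16.5%, Top2a 10.2% and Mki67 9.69%. Cdc20, which activates the anaphase-promoting complex, kept 2.04%, and Hmmr, a spindle pole protein, 1.16%. After thinning, Mki67 was found in 9.33% of Control and 12.6% of TBI radial-glia-like cells, against 1.27% and 0.585% of oligodendrocyte-like cells.

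The members were not spread evenly between the cycling classes. In both libraries, 14 of 47 were at least 1.5-fold higher in G2/M-like than in S-phase-like cells, where 6.74% of all 10427 genes with at least 20 UMIs passed this rule, and 8 were at least 1.5-fold lower, where 11.2% of all genes passed. At any size, 26 members were higher in the G2/M-like and 21 in the S-phase-like cells, each in both libraries, and 0 changed sides between the libraries. Both classes carried all 47 members.

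Cdc20, Cenpa, Cdc25c, Pttg1 and Cenpe leaned furthest toward the G2/M-like cells. Cdc20 stood at 184 CPM in the S-phase-like and 667 in the G2/M-like cells of Control, a ratio of 3.62 (3.17 to 4.15), and at 156 and 546 in TBI, a ratio of 3.51 (2.93 to 4.23). Cenpa, the histone variant that marks centromeres, gave 3.17 in Control and 3.37 in TBI. Cdc25c gave 3.16 and 3.28, on low levels of 32.0 and 28.6 CPM in the S-phase-like cells. Pttg1 gave 2.92 (1.90 to 4.59) and 2.10 (1.17 to 3.92), which are the widest intervals of the 5 genes as a ratio of upper to lower bound. The kinetochore motor gene Cenpe gave 2.43 and 2.18. These 5 were G2/M-leaning in both libraries, with no interval reaching 1.

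At the other end stood Esco2, Aurkb, Ndc80, Spc25 and Top2a. Esco2, which acts on cohesin during replication, stood at 417 CPM in the S-phase-like and 82.3 in the G2/M-like cells of Control, a ratio of 0.198 (0.161 to 0.241), and at 419 and 48.2 in TBI, a ratio of 0.115 (0.0852 to 0.153). Aurkb gave 0.330 and 0.333, and the NDC80 complex genes Ndc80 and Spc25 gave 0.470 and 0.489 in Control and 0.321 and 0.485 in TBI. Top2a gave 0.540 (0.504 to 0.580) in Control and 0.434 (0.397 to 0.474) in TBI. Mki67 leaned the same way by less, at 0.684 and 0.713. Cdk1 was lower in the G2/M-like cells at 0.723 and 0.429, whereas its partners Ccnb1 and Ccnb2 were higher there at 2.04 and 2.21 in Control and 2.32 and 2.18 in TBI. Members of 1 role group could lie on opposite sides. In the kinetochore group, 4 of 7 genes were at least 1.5-fold higher in the G2/M-like and 2 in the S-phase-like cells of both libraries.

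**Figure D4:**
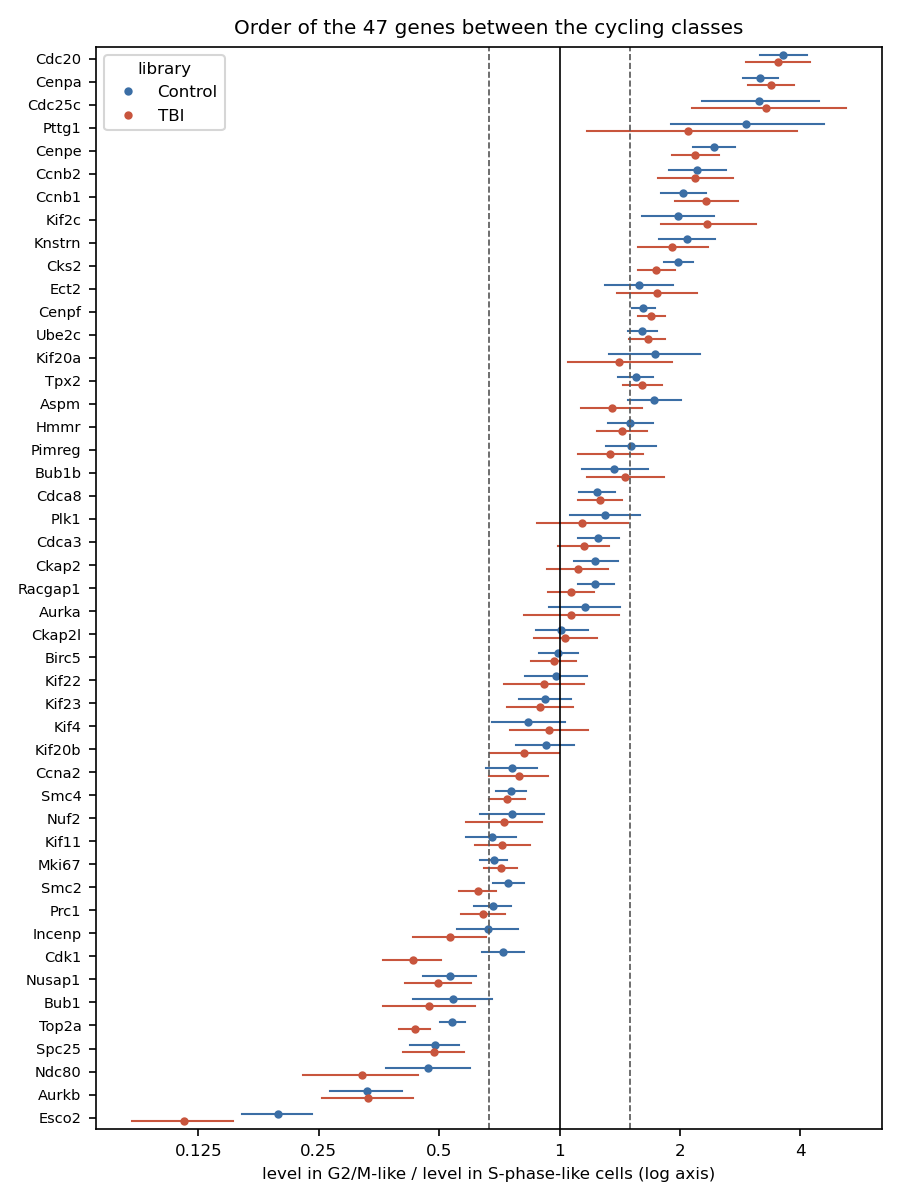
Ratio of the level in G2/M-like to that in S-phase-like cycling progenitors for each of the 47 genes (log axis), ordered by the ratio over both libraries, with the exact 95% counting interval in Control (blue) and TBI (red) and dashed lines at 1.5-fold. The order runs from Cdc20 at 3.62 and 3.51 to Esco2 at 0.198 and 0.115, and no gene has its 2 points on opposite sides of 1.

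Promoters of such genes are known to carry CCAAT boxes, bound by the factor NF-Y, and cell cycle homology elements, bound by repressor and activator complexes that time late cell cycle genes. RefSeq promoter windows of GRCm38.p6, the files' genome build, were found for 38 of the 47 members. Of these 38, 30 (78.9%) held CCAAT on either strand in the 250 bases before the RefSeq start, against 33.8% of all 32851 windows. TTTGAA on either strand was held by 14 (36.8%) against 5252 of the 32851 windows, and TTTAAA, which reads the same on both strands, by 7 (18.4%) against 12.1%. CCAAT together with either of the others was held by 18 members (47.4%) and by 8.78% of all windows. In the 100 bases before the start, 71.1% of the members held CCAAT against 18.9% of windows, 23.7% held TTTGAA against 5.77%, 7.89% held TTTAAA against 4.39%, and 28.9% held CCAAT with either of the others against 1.77%. These are matches of letters in a window. In the 250 bases, TTTGAA or TTTAAA was held by 20 of the 38 members (52.6%) and by 25.2% of all windows. The S-leaning and G2/M-leaning members below are few and were not tested against each other. Of the members at least 1.5-fold higher in the S-phase-like cells, only Top2a held TTTGAA or TTTAAA. Spc25 and Bub1 held CCAAT only, Ndc80 and Nusap1 had no match, and Esco2, Aurkb and Incenp had no window. Of those at least 1.5-fold higher in the G2/M-like cells, Cdc20, Cenpa, Ccnb1, Ccnb2, Kif2c, Ect2, Cenpf and Ube2c held TTTGAA or TTTAAA. Pttg1, Cenpe, Knstrn and Cks2 held neither, and Cdc25c and Tpx2 had no window. The 150 bases before the start are shown for the most G2/M-leaning pair, Cdc20 and Cenpa, for Top2a and for the more weakly S-leaning Mki67. They run 5′ to 3′ on the gene's strand, with every match to the 3 motifs on either strand in capitals. Cdc20 is on the minus strand at chr4:118437344-118437493, Cenpa on the plus strand at chr5:30666736-30666885, Mki67 on the minus strand at chr7:135716380-135716529 and Top2a on the minus strand at chr11:99024190-99024339.
Cdc20: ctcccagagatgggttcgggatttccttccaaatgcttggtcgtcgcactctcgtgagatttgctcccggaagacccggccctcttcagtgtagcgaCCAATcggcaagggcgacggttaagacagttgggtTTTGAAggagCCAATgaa
Cenpa: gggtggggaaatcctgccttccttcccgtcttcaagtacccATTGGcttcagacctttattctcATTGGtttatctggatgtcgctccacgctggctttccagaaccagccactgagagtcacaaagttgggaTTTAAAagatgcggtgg
Mki67: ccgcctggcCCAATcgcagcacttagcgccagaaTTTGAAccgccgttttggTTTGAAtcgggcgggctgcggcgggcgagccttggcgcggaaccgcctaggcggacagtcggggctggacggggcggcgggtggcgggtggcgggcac
Top2a: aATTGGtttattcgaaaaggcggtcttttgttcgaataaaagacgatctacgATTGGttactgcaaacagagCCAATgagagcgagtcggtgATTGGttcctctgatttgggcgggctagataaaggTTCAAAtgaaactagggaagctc
In Cdc20 the nearest TTTGAA begins 18 bases before the start and CCAAT matches begin 53 and 8 bases before it, in Cenpa a TTTAAA begins at 17 and CCAAT matches at 109 and 86, and in Top2a a TTTGAA match lies at 23 below a row of CCAAT matches at 149, 98, 78 and 58. In Mki67 both TTTGAA matches lie farther out, at 116 and 98, with a CCAAT at 141.

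Between the sham and the injured library, the level of the 47 genes in the cycling classes differed little. The summed level in the cycling progenitors was 17181 CPM in Control (17032 to 17331) and 16802 in TBI (16626 to 16978), a TBI to Control ratio of 0.978 (0.965 to 0.991). Split by class, the ratio was 1.00 (0.981 to 1.02) in the S-phase-like and 0.949 (0.931 to 0.966) in the G2/M-like cells. The rule for single genes was a 1.5-fold difference with at least 20 UMIs over both libraries. In the cycling progenitors 0 of 47 members passed it in either direction, where 4.76% of 10427 genes were past it upward and 5.84% downward. By the counting intervals alone, 6 members lay above and 13 below a ratio of 1, which 6.89% and 6.66% of all genes did. Genes enter these shares from 20 UMIs, while Cdc25c had 328 and Cks2 3841 UMIs in the cycling progenitors of both libraries. More UMIs narrow an interval and the scatter of a ratio, and no share of genes with like counts was taken. The shares over all genes are therefore not a like comparison, here and in the other populations. The median log2 ratio of the members was -0.03. The direction of the small difference in the sum depended on the cells kept, since its log2 ratio was -0.03 but 0.05 (0.02 to 0.08) once cells with more genes than any cell that the study lists were left out, at most 4991 in Control and 4492 in TBI.

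The members with the highest ratios came from several role groups. Hmmr and Tpx2 belong to the spindle assembly group, Kif4 to the kinesins, Cenpe to the kinetochore group and Ect2 to the cytokinesis regulators. The median ratio of the spindle assembly group was 1.02, and its member Ckap2 was among the lowest of the list at 0.810. Kif4, a chromosome-bound kinesin, stood at 127 CPM in Control and 159 in TBI, a ratio of 1.25 (1.08 to 1.45). Hmmr stood at 340 and 409, a ratio between 1.10 and 1.32 by its interval, and Tpx2 at 569 and 678, a ratio of 1.19 (1.11 to 1.28). Cenpe gave 1.13 (1.04 to 1.22) and Ect2 1.13 (0.975 to 1.30). Kif4, Hmmr and Tpx2 were above 1 in both classes taken alone, at 1.19, 1.21 and 1.13 in the S-phase-like and 1.34, 1.15 and 1.18 in the G2/M-like cells, although the interval of Kif4 in the S-phase-like cells, 0.959 to 1.47, included 1.

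The lowest ratios were those of Pttg1 at 0.761 (0.546 to 1.05), Aurkb at 0.793 (0.685 to 0.916), the microtubule-associated Ckap2 at 0.810 (0.728 to 0.900), Ndc80 at 0.818 (0.680 to 0.980) and Cdk1 at 0.822 (0.745 to 0.907). Top2a stood at 0.886 (0.840 to 0.935) and Mki67 at 0.948 (0.892 to 1.01). In the S-phase-like cells 0 of 47 members passed 1.5-fold, where 6.79% of genes did upward and 7.14% downward. In the G2/M-like cells 0 of 47 passed upward, where 6.25% of genes did, and 4 of 47 passed downward, where 8.20% of genes did. These were Cdk1 at 0.614 (0.520 to 0.723), Esco2 at 0.586 (0.417 to 0.813), Ndc80 at 0.659 (0.464 to 0.928) and Pttg1 at 0.659 (0.445 to 0.964).

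Cdk1, Esco2 and Ndc80 lean to the S-phase-like class. The 10 S-phase marker genes, which are not members, summed to 522 CPM in the Control (485 to 560) and 394 in the TBI G2/M-like cells (359 to 433), and the 12 G2/M markers to 4020 and 3489. In the S-phase-like cells Cdk1 stood at 434 CPM in Control and 450 in TBI, and Esco2 at 417 and 419. In the G2/M-like cells, late neuroblast markers summed to 865 CPM in Control (817 to 914) and 1169 in TBI (1107 to 1234). Radial-glia markers summed to 3952 and 3193 there, stem-like astroglia markers to 1159 and 852, and early neuroblast markers to 4681 and 4698. Genes of mural cells summed to 11.8 CPM in the Control and 170 in the TBI S-phase-like cells, among which 2 TBI cells were called doublets. The part of these differences in the ratios was not tested.

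**Figure D5:**
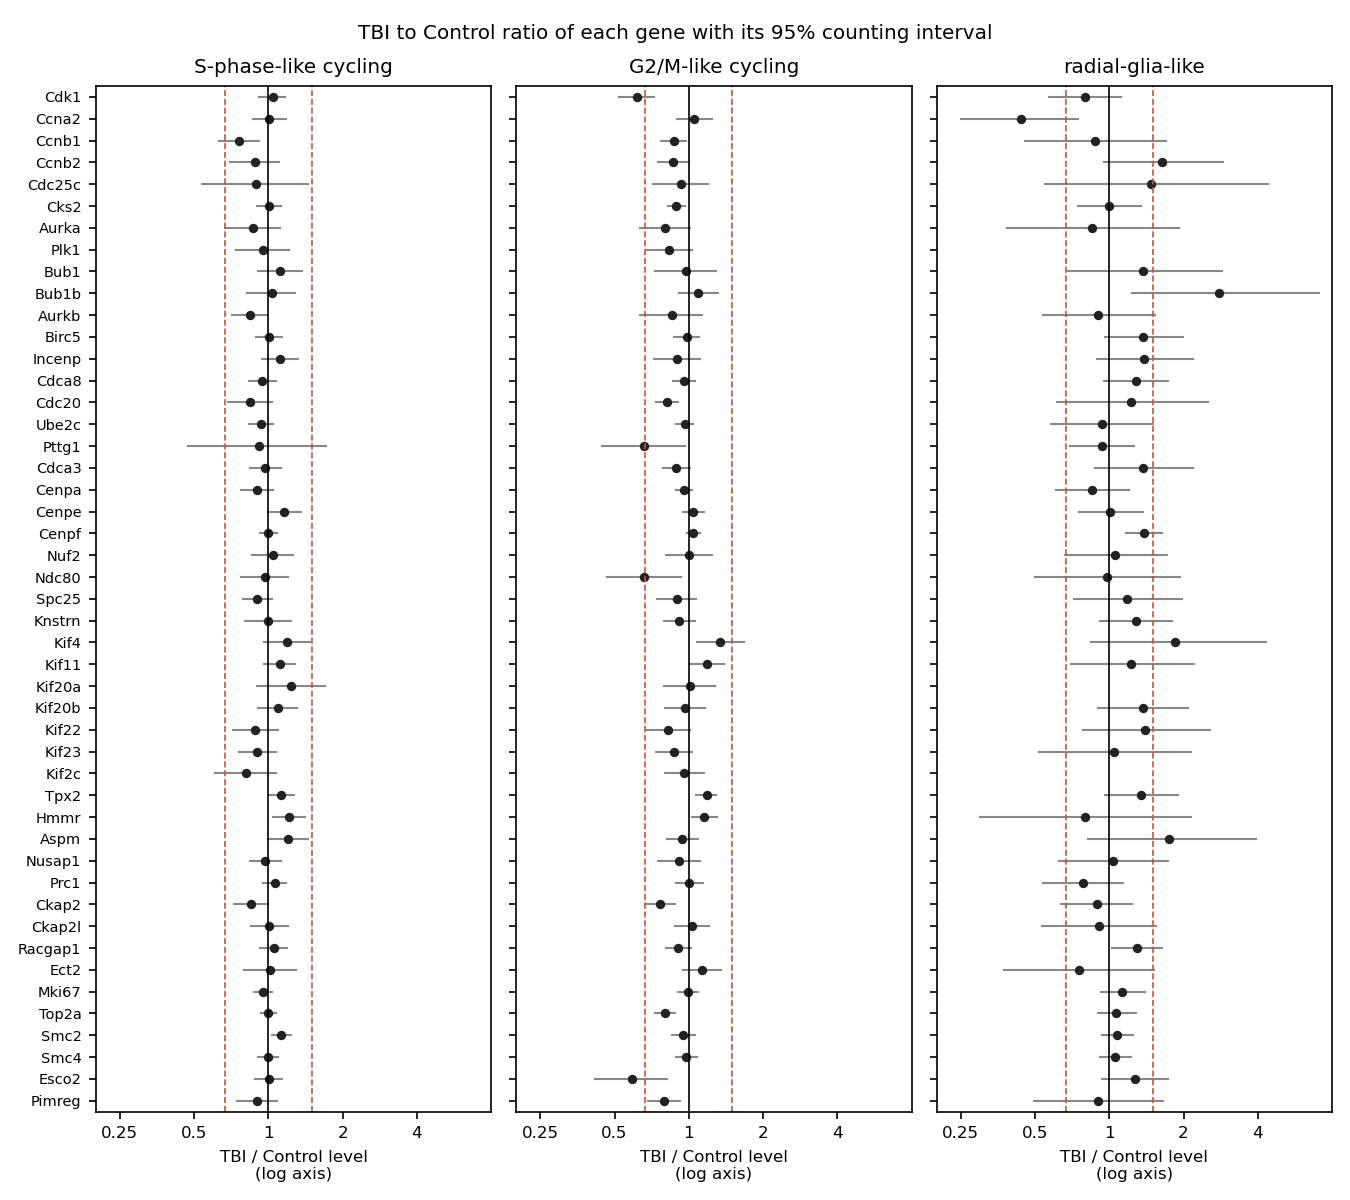
TBI to Control ratio of the level of each gene (log axis), with its exact 95% counting interval, in the S-phase-like, G2/M-like and radial-glia-like cells, for all 47 genes in the cycling classes and the 44 with at least 20 UMIs in the radial-glia-like cells, with a solid line at 1 and dashed lines at 1.5-fold. Points past 1.5-fold are Cdk1, Pttg1, Ndc80 and Esco2 in the G2/M-like and Ccnb2, Bub1b, Kif4, Aspm and Ccna2 in the radial-glia-like cells.

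In the radial-glia-like cells, the summed level was 1379 CPM in Control (1329 to 1430) and 1530 in TBI (1483 to 1578), a ratio of 1.11 (1.06 to 1.16). Of the 44 members with at least 20 UMIs, 28 had a ratio above 1 and 16 below. Upward 4 passed 1.5-fold, where 5.67% of 10859 genes did, and downward 1 passed, where 4.42% did. Bub1b gave 2.79 (1.24 to 7.09) on 8 Control and 28 TBI UMIs, while Kif4, Aspm and Ccnb2 gave 1.84, 1.74 and 1.63 with intervals that include 1. Bub1b, Kif4 and Aspm had 8, 10 and 11 UMIs in Control and passed the limit of 20 through TBI, so that the count of 4 is no support for a difference. Ccna2, the gene of cyclin A, stood at 20.2 CPM in Control and 8.85 in TBI, a ratio of 0.437 (0.251 to 0.744). Among the better counted members Cenpf gave 1.38 (1.17 to 1.63), Mki67 stood at 78.6 and 88.9 CPM, and Top2a at 112 and 120. Oligodendrocyte markers summed to 160 CPM in the Control and 881 in the TBI radial-glia-like cells, and endothelial ones to 6.27 and 41.9. Their part in the ratio was not tested. The ratio was 1.10 (1.05 to 1.15) without called doublets, but when the 47 genes were used in the clustering its log2 value went from 0.15 to 0.06, with an interval from -0.02 to 0.13.

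In the early-neuroblast-like cells the sum was 417 CPM in Control (387 to 448) and 476 in TBI (450 to 503), a ratio of 1.14 (1.04 to 1.25). There 19 members reached 20 UMIs. Upward 7 of the 19 passed 1.5-fold, where 5.64% of 10228 genes did, and downward 0 passed, where 4.26% did. The upward count is no support for a difference, because Incenp, Cdca3, Nusap1 and Prc1 had 5, 3, 6 and 4 UMIs in Control and reached the limit of 20 through their 15, 18, 17 and 19 in TBI. Cenpf gave 1.66 (1.19 to 2.36) and Cenpa 1.66 (1.08 to 2.60), while Cdca3 and Prc1 gave 4.05 (1.18 to 21.5) and 3.21 (1.07 to 13.0) on few UMIs. The other 3, Incenp, Tpx2 and Nusap1, had intervals that include 1. The TBI sum held 6 cells with at least 5 members, which carried 11.7% of its member UMIs, and the Control sum 1 such cell with 3.51%. Without those cells the levels were 404 and 428 CPM, and with the members used in the clustering the log2 ratio went from 0.19 to 0.09 with an interval from -0.02 to 0.21. In these cells 23 members in Control and 13 in TBI had at most 3 UMIs. Oligodendrocyte markers summed to 165 CPM in Control and 285 in TBI and endothelial ones to 11.8 and 94.6, and their part in the ratio was not tested.

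Outside the cycling progenitors, the median member of the list kept 1.14% of its level in them, whereas the median of all 10427 genes was 102%. The exceptions were few. Pttg1 (chromosome 11, 43420250 to 43426251) was higher outside, at 192% of its level in the cycling cells over both libraries. It stood at 162 CPM in Control and 164 in TBI mural-like cells, 122 and 118 in endothelial-like cells, 91.4 and 98.3 in astrocyte-like cells and 77.5 and 75.2 in oligodendrocyte-like cells. Those levels lie above the 37.8 and 28.8 of the cycling progenitors in both libraries. Not all populations were higher. Over both libraries Pttg1 kept 101% of its cycling level in early-neuroblast-like and 48.9% in late-neuroblast-like cells, and 21.4% and 44.0% in the unnamed neuronal populations. No other gene of the count tables overlaps its exons on the same strand, nor those of the other 46 members.

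Smc4, Smc2 and Racgap1 followed with 8.47%, 6.66% and 4.55% of their level in the cycling progenitors, and Incenp and Kif20b with 3.13% and 3.09%. Smc4 stood at 96.7 CPM in Control and 84.7 in TBI early-neuroblast-like cells and at 77.6 and 68.8 in late-neuroblast-like cells. Racgap1 was at 35.1 and 39.8 CPM in late-neuroblast-like cells but at 1.60 and 1.21 in astrocyte-like ones. Pttg1, Smc4, Smc2 and Racgap1 made up 73.2% of the member UMIs of oligodendrocyte-like cells and 66.7% of those of late-neuroblast-like cells, against 11.0% in the cycling progenitors. With these 4 left out, a choice made after their levels were seen, the other 43 members summed to 50.1 CPM in oligodendrocyte-like, 53.0 in astrocyte-like and 79.2 in late-neuroblast-like cells, and to 15151 in the cycling progenitors.

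Single members stood out in populations with a low summed level. They were picked after their values were seen. Cks2 stood at 121 CPM in Control and 138 in TBI microglia-like cells, where 38 of the 47 members had at most 3 UMIs over both libraries. Kif23, a centralspindlin motor, stood at 14.7 and 14.9 CPM in endothelial-like cells, and Nuf2, another NDC80 complex gene, at 14.0 and 12.1 in astrocyte-like cells. In the Reln-neuron-like cells, neurons that carry the gene of reelin, Cenpf kept 7.91% of its level in the cycling progenitors, while Top2a kept 0.139% and Mki67 0.365%. The counting intervals of both libraries overlapped for Cks2, Kif23, Nuf2 and Cenpf in these populations.

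The other genes of the mitotic pathway were counted by the same rules. Of 30 further checkpoint and kinetochore genes 0 passed 1.5-fold between TBI and Control in the cycling progenitors. Of 15 further condensin, cohesin and separase genes 1 passed upward, the cohesin acetyltransferase gene Esco1, at 16.5 and 24.9 CPM. Of 28 further spindle, kinesin and cytokinesis genes 1 passed downward, Plk4, the kinase of centriole duplication, at 99.2 and 65.2 CPM (ratio 0.657, 0.532 to 0.808). Among 23 further regulators of mitotic entry and exit and 11 transcription regulators listed for mitotic genes 0 passed. The median log2 ratio of these 11 was -0.27, against -0.13 to -0.06 in the other lists. E2f1 gave 0.689 (0.545 to 0.866) and Lin9 0.698 (0.536 to 0.904), while Foxm1, Mybl2 and E2f7 lay above 1. The highest of each list in the cycling progenitors were Spc24 at 353 CPM, Rad21 at 481, Ckap5 at 358, Ube2s at 1530 and Foxm1 at 88.3 over both libraries. Over all genes 4.76% passed upward and 5.84% downward. In both libraries, 14 of the 30 checkpoint and kinetochore genes were at least 1.5-fold higher in the S-phase-like cells. So were 9 of the 15 condensin, cohesin and separase genes and 9 of the 28 spindle genes. The same held for 6 of the 23 entry and exit regulators and 7 of the 11 transcription regulators, where 11.2% of all genes passed. Toward the G2/M-like cells, where 6.74% of all genes passed, 3 did, Cdkn3 and Dlgap5, which also served as naming markers, and Nek2. Their median level outside the cycling progenitors, 6.78% to 29.4% of that inside, was higher than that of the 47 members.

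Over 30 points, 15 populations in each of 2 libraries, the genes outside the list whose log2(CPM + 1) followed the summed member level most closely were Ankle1 (Pearson r = 0.983), Nek2 (0.977), Troap (0.975), Ska1 (0.975), Cep55 (0.974), Kif18b (0.971), Depdc1a (0.968), Kif14 (0.967), 4930558J18Rik (0.959) and Ska3 (0.958). Cep55 and Depdc1a were among the naming markers. Of the 47 members, 39 were among the first 100 genes in this order and the median r was 0.93, while Pttg1 stood apart at -0.164. Each member is part of the sum it was set against, so high values of members are in part fixed in advance. The points share their libraries and the cycling classes set most of their range, so these values describe the tables and carry no test.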

How the data were processed

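The authors sorted GFP-positive live cells and made 10x Genomics 3′ libraries, and deposited 1 table of whole-number UMI counts per gene and cell barcode for each library, made with Cell Ranger 3.0.2 on GRCm38 per the labels. The counts were used as deposited. Barcodes with under 200 genes, and those whose log10 UMI total lay more than 3 scaled median absolute deviations from the median on either side, were left out. Scrublet (scanpy 1.11.5) marked 38 Control and 110 TBI cells as doublets, which were kept and then left out in an alternative. Cells were integrated and clustered with Seurat 5.3.0 in R 4.3.3 (2000 variable genes) without the 47 genes and Malat1, and clusters were named from fixed markers, with at least 3 found. The naming rule was revised after the clusters were seen, so that low-RNA clusters stayed unnamed, and without use of the TBI to Control values. The labels name animals and not the pooled tables. Which table is Control and which TBI was taken from cell barcodes that the study lists by condition, of which 356 of 356 and 320 of 320 were found in the table so assigned and 0 in the other.

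UMIs were summed per population and library with Python 3.11.15 and scipy 1.17.1. CPM are UMIs per 1000000 UMIs of all genes but Malat1. Sums carry exact Poisson and shares exact Clopper-Pearson 95% intervals, and ratios the Clopper-Pearson interval of the split of the UMIs. The ratio step was run on Poisson counts simulated from 1 profile, which is the model that its interval assumes. That run held no spread between cells or animals, so it checks the calculation only. With 1 library per condition there was no test between conditions, and the authors' own comparisons were not used. The genes named were the highest and lowest of each role group, the 5 highest and 5 lowest by TBI to Control ratio and by ratio between the cycling classes, the 6 highest outside the cycling progenitors, and Mki67, Top2a and Cdk1. Members and lists were chosen with earlier results of these data known.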

Additional observations from a re-analysis of the deposited data

Results flagged for a closer look

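The TBI to Control ratio of the summed 47 genes lay above 1 in 4 populations and below 1 in the G2/M-like cycling progenitors, each with a counting interval that does not include 1. The difference between these populations was not tested, since each condition is 1 library. The ratio was 1.11 (1.06 to 1.16) in radial-glia-like cells, 1.14 (1.04 to 1.25) in early-neuroblast-like cells and 0.949 (0.931 to 0.966) in G2/M-like cells.

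In the OPC-like cells it was 3.62 (2.66 to 5.02), from 218 CPM in 28 Control cells and 789 in 56 TBI cells. The 3 Control cells with the most member UMIs held 41.7% of the Control sum of 48 UMIs. Of the TBI sum of 292 UMIs, 70.2% was held by the 3 highest TBI cells. Of these, 2 had at least 5 members after thinning, with 24 and 37 members and 69 and 125 member UMIs unthinned, and neither was called a doublet. Without the 3 highest cells of each library the ratio was 1.40 (0.907 to 2.23), on 28 member UMIs in 25 Control and 87 in 53 TBI cells. Oligodendrocyte markers summed to 23269 CPM in the Control and 5535 in the TBI cells of this population, early neuroblast markers to 68.2 and 500, and radial-glia markers to 350 and 638. Their part in the ratio was not tested.

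In the mural-like cells the ratio was 1.31 (1.15 to 1.49), from 289 and 378 CPM. Both TBI cells with at least 5 members were called doublets, and without called doublets the ratio was 1.18 (1.04 to 1.35). With Pttg1, Smc4, Smc2 and Racgap1 left out it was 2.40 (1.82 to 3.21), from 52.0 and 125 CPM. Late neuroblast markers summed to 54.5 CPM in the Control (42.1 to 69.3) and 296 in the TBI mural-like cells (274 to 319), and radial-glia markers to 1885 and 676. Their part in the ratio was not tested.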

How the results depend on the processing

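Of the recomputed values, 72 kept their direction and stayed within the counting interval or, for counts, within 1.5 times, 25 moved further and 1 changed sign. Some of the 72 could not change. The share of all cells with at least 5 members does not use the clusters, and stricter rules for single genes cannot raise a count of 0. In all alternatives 0 of 47 members passed the fold in the cycling progenitors. The main shares of cells with at least 5 members were 6.90% in Control (5.97 to 7.92) and 4.82% in TBI (4.20 to 5.50). They are taken over the 2697 Control and 4295 TBI cells of all populations that had at least 2000 UMIs. With cells above the highest gene number of the cells that the study lists left out, the summed level there was 13979 CPM in Control and 14470 in TBI, its log2 ratio changed sign from -0.03 to 0.05, that of the radial-glia-like cells was 0.27, and the shares of cells with at least 5 members were 4.47% and 3.80%; the cause was not tested. With the members kept in the clustering the levels were 17455 and 16521 CPM and the log2 ratios -0.08 in cycling and 0.06 in radial-glia-like cells. Without integration they were 0.00 and 0.22, with 17157 CPM in TBI, and without the RNA content filter the levels were 17430 and 17191. A mitochondrial limit of 10% gave a Control share of 8.31%. Thinning to 1000 UMIs gave shares of 5.34% and 3.42%, and to 4000 UMIs 10.5% and 8.64%. A limit of 3 members gave 8.57% and 6.98%, and of 10 members 5.27% and 3.40%. In alternatives chosen after seeing the data, the cycling log2 ratio was -0.06 without the 3 cells of most member UMIs in each library, and the early-neuroblast-like one 0.39 with 43 members. No paired analysis was possible because animals were pooled into 1 library per condition.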

Other observations

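The barcodes removed for few genes or a UMI total far from the median carried the 47 genes at a level of 170 CPM in 38 Control barcodes and 73.7 CPM in 48 TBI barcodes, on 16 and 3 member UMIs. A neuronal population led by Sema5a and nearest to late neuroblasts was left without a name, and held the members at 240 CPM in Control and 260 in TBI. A second one of low RNA content, with a median of 1589.5 UMIs, held 259 and 304 CPM on 24 and 53 member UMIs.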
